A study of Mus musculus with 9 samples.

Results

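Arsenic trioxide (ATO) and all-trans retinoic acid (ATRA) were compared directly in acute promyelocytic leukemia (APL) cells of the mouse. The comparison used 6 of the 9 polyA RNA-seq libraries of the study, ATO 1 to 3 and ATRA 1 to 3, chosen by their labels, and the 3 control libraries served as the common background. All 9 came from GFP+ cells sorted from the bone marrow of FVB/NJ recipients, which had been transplanted with syngeneic APL cells from hMRP8-PML/RARα transgenic mice labeled with the retroviral vector MigR1. The ATRA group had received 10 mg/kg and the ATO group 4 mg/kg by daily intraperitoneal injection for 6 days, and the control group had received neither drug. Whether the controls were given solvent was not stated. Ages were not given in the labels, but the study's methods put the recipients of its transplantations at 6 to 10 weeks of age. The human MRP8 promoter drives the transgene in myeloid cells, the host kept its own hematopoiesis, and the doses of the drugs differed, so that a difference between the groups belongs to these doses at this time. The study described 3 biological replicates per group, but the labels did not say that they were separate animals, and the p-values therefore measure only the spread between these libraries.

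PML/RARα, the fusion protein of APL, binds retinoic acid response elements and represses genes of myeloid differentiation. ATRA binds the RARα moiety and turns the fusion protein from a repressor into an activator before it is degraded, whereas ATO binds the PML moiety and drives its sumoylation and degradation. ATO also reacts with thiols in other proteins and is known to engage stress responses, among them those of heat shock factor 1, NRF2 and ATF4.

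The libraries held between 12192491 (ATO 3) and 25511738 (ATO 2) reads on genes, with 13757 to 15397 genes detected. A value below is the number of reads divided by the library's size factor (scaled reads), and a difference is that of log2(scaled reads + 0.5), ATO minus ATRA, which understates the change of genes of low level. The promyelocyte genes Mpo, Elane, Prtn3 and Ctsg were at 27837 scaled reads or more in each drug library, and the progenitor gene Cd34 was at 8.2 or less. ATRA 1 and ATRA 2 correlated with each other at r = 0.991 across genes, and with ATRA 3 at 0.971 and 0.977. Their correlations with ATO 1 and ATO 2 were between 0.982 and 0.985, which were above those with ATRA 3. The first principal component of the 6 drug libraries (39.8% of the variance) set ATO 3 apart and the second (28.7%) set ATRA 3 apart. ATO 3 also carried a trend with gene length, its level falling by 0.230 on the log2 scale per doubling of length relative to the mean of the libraries. The counts of genes passing a test between ATO and ATRA and the medians of the gene lists are therefore also given without ATRA 3. Medians are given without ATO 3 where these moved by over 1.5 times.

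Of 12101 genes tested across the 9 libraries, none differed between ATO and ATRA by limma with a fold change above 1.5 and an adjusted p below 0.05 (0.0% in each direction), and none by edgeR. The smallest adjusted p was 0.0796, reached by Adgrg5. At an unadjusted p under 0.05 with the same fold, 262 genes (2.17%) were higher and 289 (2.39%) lower with ATO. DESeq2 called 50 genes higher (0.414%) and 22 lower (0.182%) with ATO. With control 2 left out, a library of neither drug that enters through the spread, the filter and the size factors, limma called 28 genes higher (0.236%) and 1 lower (0.00844%). The median 95% interval of a gene reached 0.50 to either side on the log2 scale. In simulated data of this size all of the 50 genes changed by 4-fold, 26 of 50 changed by 2-fold and 4 of 50 changed by 1.5-fold were called. The simulation gave all genes the same dispersion and held no library that stood apart. It therefore does not say which fold would be called in these libraries, where Adgrg5 at -2.31 was not called. The deviations of same-numbered ATRA and ATO libraries from their group means correlated weakly (r = 0.119, 0.162 and 0.331). Those of ATRA and control libraries correlated at -0.054, 0.223 and 0.267, and those of ATO and control libraries at -0.381, 0.078 and -0.025. A fit of the 6 drug libraries alone with the replicate number as a block, chosen after the data were seen, called 174 genes higher (1.5%) and 185 lower (1.6%), and rested on 2 degrees of freedom of each gene's own out of 26.2, the rest being borrowed across genes. Relative to the controls, which both drugs share, limma called 162 genes higher (1.34%) and 516 lower (4.26%) with ATRA, and 742 higher (6.13%) and 1035 lower (8.55%) with ATO. With ATRA 3 left out, limma again called none, the smallest adjusted p being 0.0572, while 343 genes (2.84%) were higher and 390 (3.23%) lower at an unadjusted p under 0.05 and DESeq2 called 75 higher (0.634%) and 18 lower (0.152%).

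Without regard to a test, all 3 ATO libraries lay above all 3 ATRA libraries for 952 genes (7.87%) and below them for 877 (7.25%). The ATO libraries stood above the 6 others, controls included, for 467 genes (3.86%) and below them for 411 (3.4%). The ATRA libraries stood above the 6 others for 80 genes (0.661%) and below them for 205 (1.69%). Expression levels particular to one drug in this sense were thus more often those of ATO over all 9 libraries, a count that was not tested. All 3 ATO libraries lay below ATRA 1 and ATRA 2 for 2137 genes (17.7%), an order easier to meet with fewer libraries. The counts against the 6 others were not made without ATRA 3 or ATO 3. The part of these libraries in them was not tested.

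The genes higher with ATO at the smallest p coded for proteins of several kinds, and the values in each library are given for those of a mean of at least 100 scaled reads. Klf2, a Krüppel-like transcription factor of quiescence in lymphocytes and monocytes, was at 308, 505 and 548 scaled reads with ATO against 162, 115 and 171 with ATRA, and at 205, 197 and 188 in the controls. The lowest ATO library was above every other library. The difference was 1.58 ± 0.25 (SE; n = 3 and 3; adjusted p = 0.0807 by limma) and 1.69 without ATRA 3. Hcar2, a receptor for nicotinic acid and β-hydroxybutyrate, was at 367, 694 and 530 with ATO, 86.3, 156 and 196 with ATRA and 50.8, 71.1 and 50.3 in the controls. The 3 groups did not overlap, and both drugs raised the gene over the controls, by 3.17 (adjusted p = 0.00019, limma) with ATO and by 1.28 (adjusted p = 0.035) with ATRA. The drug groups differed by 1.89 ± 0.32 (adjusted p = 0.0899).

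Il3, the gene of interleukin 3, was at 191, 183 and 230 scaled reads with ATO, 70.9, 97.5 and 84.7 with ATRA and 70.3, 73.1 and 65.6 in the controls. Lmna, the gene of lamins A and C of the nuclear envelope, was at 2021, 3481 and 1820 with ATO against 626, 836 and 1028 with ATRA. Both rose with ATO over the controls, Il3 by 1.52 (adjusted p = 0.0016, limma) and Lmna by 1.78 (adjusted p = 0.0018), while the differences of ATRA from the controls were 0.26 for each (adjusted p = 0.55 and 0.63). The differences between the drugs were 1.26 ± 0.22 for Il3 and 1.52 ± 0.27 for Lmna (adjusted p = 0.0899 for each).

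For another group of these genes the ATRA libraries were the low ones. Txnip, an inhibitor of thioredoxin and of glucose uptake, was at 1733, 1935 and 1894 with ATRA, 3726, 3487 and 4860 with ATO and 3422, 2498 and 4010 in the controls. It fell by 0.81 with ATRA (adjusted p = 0.03, limma) and differed by 1.10 ± 0.20 between the drugs (adjusted p = 0.0899). Ankrd37, a hypoxia-induced gene, had its 3 ATRA libraries (40.3 to 80.01) below all controls (95.5 to 174) and its ATO libraries at 165 to 266.

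Hal (histidine ammonia-lyase) and Bhlhe40 (a transcriptional repressor of the basic helix-loop-helix family) had the ATRA libraries below and the ATO libraries above the controls. Hal was at 395, 427 and 389 with ATRA and 846, 1184 and 880 with ATO, with the controls between 464 and 764. Bhlhe40 was at 793, 798 and 656 with ATRA and 1399, 1606 and 1313 with ATO, with the controls between 907 and 1012. Hal rose with ATO over the controls by 0.76 (adjusted p = 0.035, limma), and Bhlhe40 differed by 0.58 (adjusted p = 0.035), under the fold of 1.5. The differences of ATRA from the controls did not pass (-0.49 and -0.37, adjusted p = 0.23 and 0.24, limma). Across all genes, 8 had this order, ATRA below and ATO above the controls without overlap (0.0661%), and 1 had the reverse (0.00826%). Rem1, a small GTPase of the RGK family, was the lowest expressed of these genes, with 125 to 286 scaled reads with ATO against 17.3 to 58.6 with ATRA.

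**Figure D1:**
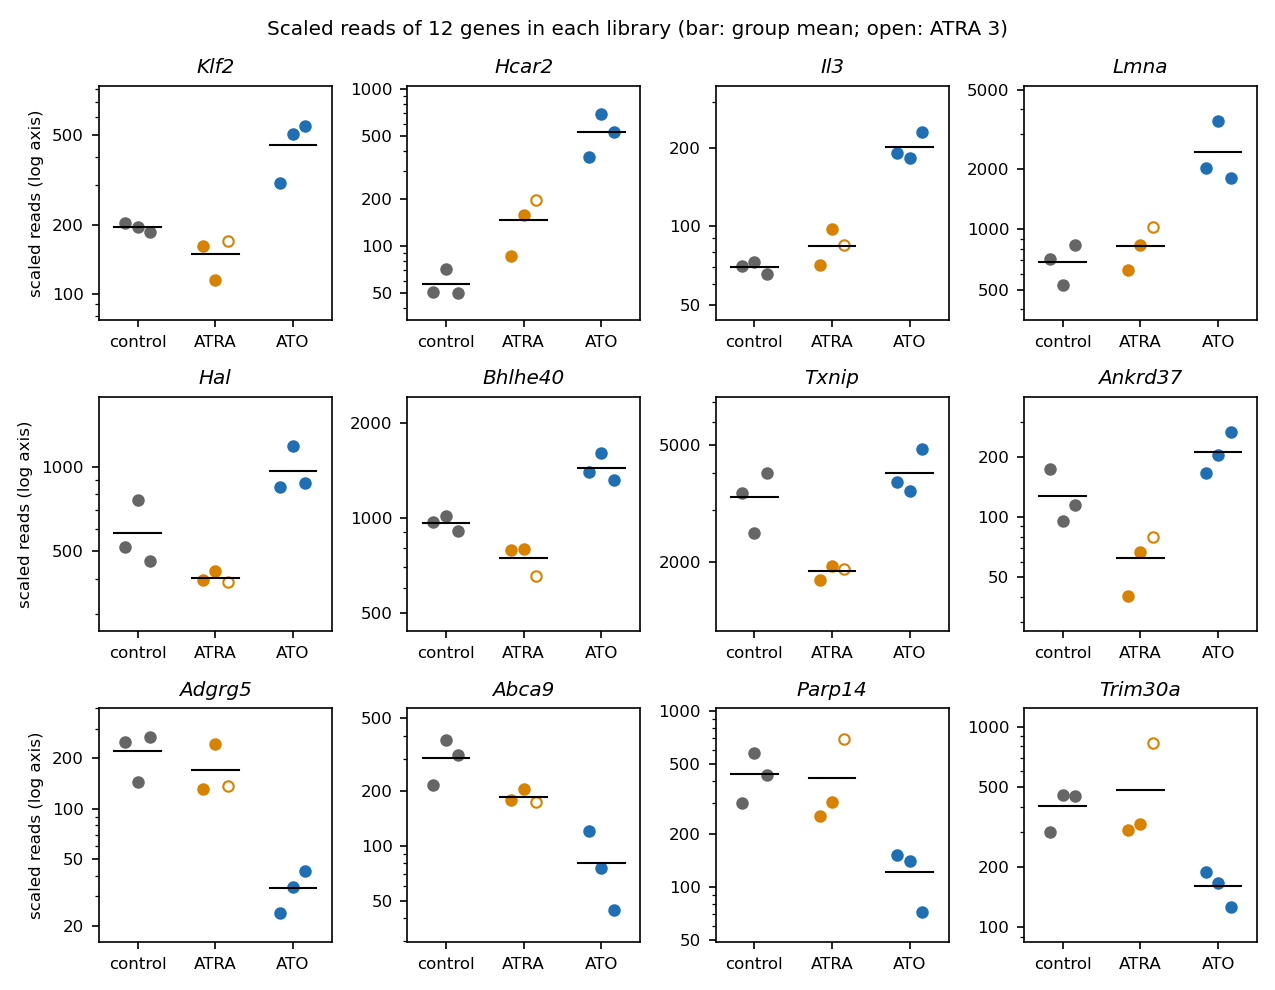
Scaled reads (log axis) of 12 genes in the 3 control, 3 ATRA and 3 ATO libraries, with a bar at the mean of each group and an open circle for ATRA 3. The ATO and ATRA libraries do not overlap in any panel, Adgrg5, Abca9, Parp14 and Trim30a are lower with ATO, and ATRA 3 is the highest of the 9 libraries for Parp14 and Trim30a.

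Of the genes lower with ATO at the smallest p, Adgrg5, an adhesion G protein-coupled receptor, was at 23.9, 34.1 and 42.7 scaled reads with ATO against 131, 244 and 137 with ATRA and 252, 145 and 267 in the controls. Every ATO library was below every other library, and ATRA overlapped with the controls. The difference between the drugs was -2.31 ± 0.33 (adjusted p = 0.0796, limma), or 4.95-fold, and was -2.43 without ATRA 3. It was the gene called lower when control 2 was left out (adjusted p = 0.027, limma). Abca9, an ABC transporter, was at 121, 75.5 and 44.3 with ATO, 177, 205 and 174 with ATRA and 215, 379 and 314 in the controls, so that both drug groups lay below the controls without overlap between any groups. It fell by 1.99 with ATO (adjusted p = 0.0031, limma), and the difference of ATRA from the controls was -0.67 (adjusted p = 0.29).

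The other 8 genes of this kind, Parp14, Trim30a, Gbp7, Ifih1, Irgm2, Oasl2, Uba7 and Trim12c, belong to families that interferon induces or are themselves induced by it. Parp14, a mono-ADP-ribosyltransferase, was at 152, 139 and 72.2 scaled reads with ATO, 251, 305 and 695 with ATRA and 298, 576 and 435 in the controls. The ATO libraries were again below all others, and ATRA 3 was the highest of the 9. The difference was -1.70 ± 0.39 (adjusted p = 0.229, limma) and -1.26 without ATRA 3. Among these 8 the differences ran from -4.20 (Oasl2) to -0.85 (Uba7), and from -2.43 to -0.61 for the same genes without ATRA 3.

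Interferons signal through JAK kinases to transcription factors, IRF9 among them, which bind interferon-stimulated response elements in promoters and induce antiviral sensors and effectors. The list of interferon-induced genes held 42 genes that were tested. With ATO, 41 of 42 were lower than with ATRA, Cxcl10 being the exception, and 28 were lower at an unadjusted p under 0.05 with the fold of 1.5, against 2.39% of all genes. The median difference was -1.36, against 0.01 over all genes tested. DESeq2 called 6 of them lower, against 0.182% of all genes. It gave no adjusted p for 11 others, whereas 12082 of all 12101 genes tested had one. The fit of the drug libraries with replicate block called 31 lower and 1 higher, against 1.6% and 1.5% of all genes. The ATRA libraries were not alike in these genes. ATRA 3 was the highest of the 9 libraries for 40 of the 42 genes, against 7.87% of all genes, and the summed level of the list was 87407 scaled reads in ATRA 3 against 28589 and 31221 in ATRA 1 and ATRA 2 and 23996 to 32056 in the controls.

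With ATRA 3 left out, the median difference was -0.61. At an unadjusted p under 0.05, 18 of the genes were lower and 1 was higher, against 3.23% and 2.84% of all genes. DESeq2 called 4 lower and 1 higher, against 0.152% and 0.634% of all genes. In 27 of 42 every ATO library was below both ATRA 1 and ATRA 2, against 17.7% of all genes. The ATO libraries were below all 6 other libraries for 20 of 42 genes, against 3.4% of all genes. Relative to the controls the list's median was -1.04 with ATO, with 7 genes called lower (8.55% of all genes) and 1 higher (6.13%), and 0.38 with ATRA, with 1 called higher (1.34%). The summed level with ATO (24079, 27631 and 34899) overlapped with that of the controls. Ly6e, the most expressed member, was at 13749 to 22968 of it. Ly6e, a GPI-anchored surface protein, and Bst2 (tetherin) had no stable direction, as their differences were -0.36 and -0.46 over all libraries and 0.06 and 0.12 without ATRA 3.

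Irf7, the regulator of type I interferon genes, was at 37.5, 47.9 and 32.8 scaled reads with ATO and 85.3, 87.1 and 1591 with ATRA, with 114 to 214 in the controls. ATRA 1 and ATRA 2 lay between the controls and ATO, and ATRA 3 lay far above every other library. Irf9 was at 251, 278 and 254 with ATO against 434, 455 and 1969 with ATRA, a difference of -1.48 that was -0.77 without ATRA 3. Irf1 rose with ATRA over the controls by 1.01 (adjusted p = 0.036, limma) and was at 648, 839 and 1415, whereas ATO libraries, at 462, 424 and 568, overlapped with the controls (418 to 523).

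Among the effectors, Oas2 and Oas3, which make the 2′-5′ oligoadenylates that activate RNase L, were at 26.0 to 31.2 and 47.6 to 52.97 scaled reads with ATO. In ATRA 1 and ATRA 2 they were at 79.5 to 98.7 and 114 to 131, in the controls at 135 to 261 and 193 to 221, and in ATRA 3 at 1511 and 1623. Oas2 fell by 2.73 with ATO relative to the controls (adjusted p = 0.041, limma). Oasl2 was at 3.12, 9.43 and 14.8 with ATO, 41.2 and 46.4 in ATRA 1 and ATRA 2 and 1755 in ATRA 3. Usp18, which restrains interferon receptor signaling, was at 8.20 to 14.5 with ATO, 31.6 and 36.0 in ATRA 1 and ATRA 2 and 504 in ATRA 3. For Oasl2 and Usp18 the ATO libraries were the lowest of the 9 and the ATRA 3 library the highest. Gbp2, a guanylate-binding protein, was at 55.2, 25.4 and 62.4 with ATO and 90.1, 185 and 989 with ATRA, while Ifit1, at 11.4, 2.90 and 4.92 with ATO and 13.4, 23.7 and 253 with ATRA, rested on few reads. Cxcl10, a chemokine induced by interferon γ, ran the other way with 649, 860 and 912 with ATO against 224, 262 and 836 with ATRA. It rose over the controls with ATO by 2.46 (adjusted p = 0.0092, limma), and its difference between the drugs was 1.12, or 1.72 without ATRA 3.

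**Figure D2:**
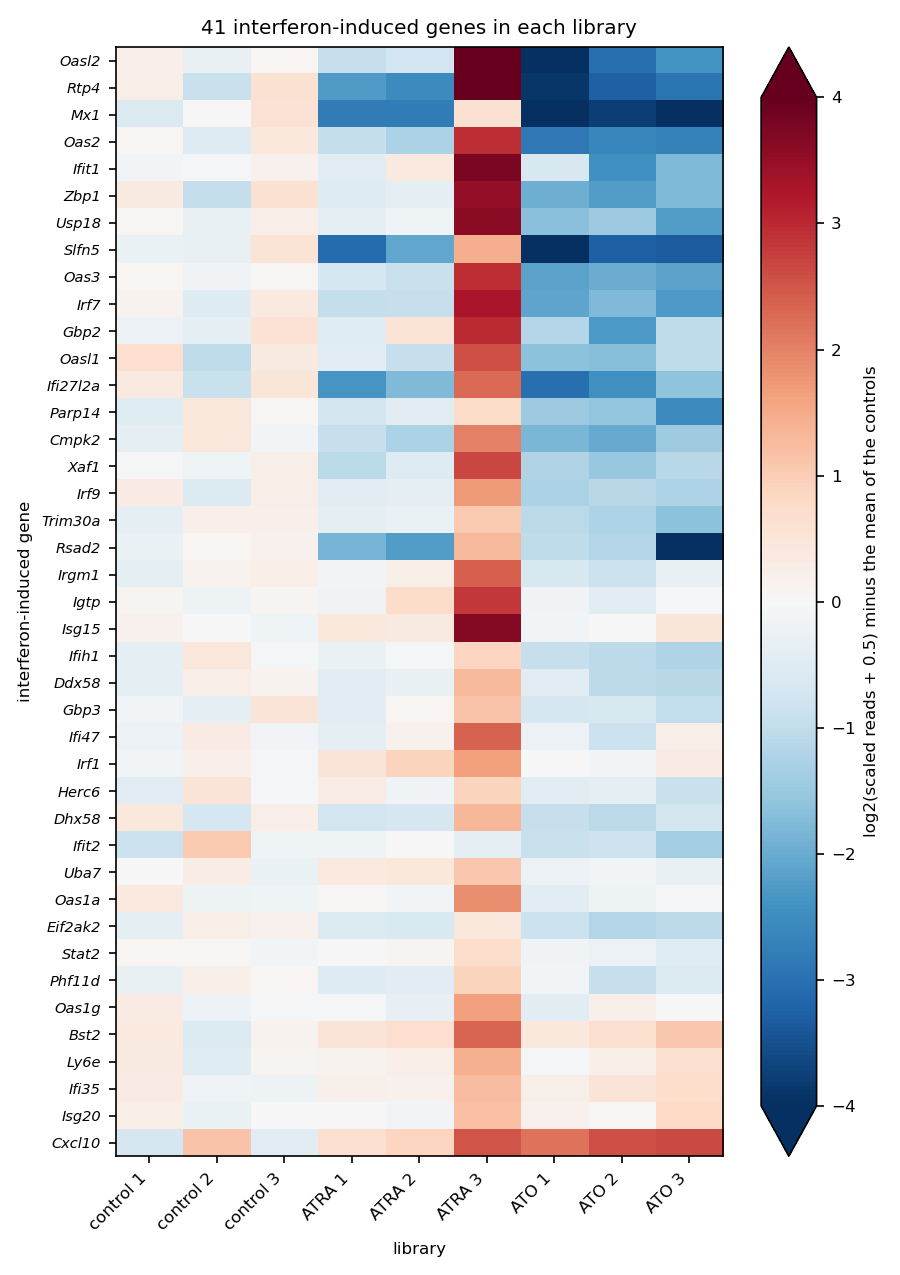
Heat map of 41 of the 42 interferon-induced genes tested (rows, sorted by difference) in the 9 libraries (columns), with color giving log2(scaled reads + 0.5) minus the mean of the controls. ATRA 3 is the highest library in nearly every row, Ifit2 and Cxcl10 excepted, and most rows are lower in the ATO libraries than in ATRA 1 and ATRA 2.

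The promoters of 2 genes of this list are shown because both carry the interferon-stimulated response element near their start. Trim30a, which restrains Toll-like receptor signaling, was at 188, 167 and 126 scaled reads with ATO, 305, 327 and 829 with ATRA and 300 to 459 in the controls (-1.46 ± 0.34, adjusted p = 0.24, limma; -0.99 without ATRA 3). Ifih1, the cytosolic sensor of double-stranded RNA also called MDA5, was at 86.4, 79.1 and 70.6 with ATO, 136, 156 and 300 with ATRA and 127 to 222 in the controls (-1.24 ± 0.31, adjusted p = 0.313; -0.89 without ATRA 3). For both, the ATO libraries were below all others and ATRA 3 was the highest. Each sequence is the RefSeq promoter (GRCm38.p6, minus strand, 5′ to 3′, 300 bases around the gene start), with the motif TTTCNNTTTC, searched on both strands, in capitals. The Trim30a window is chr7:104465144-104465443, with the motif 36 bases before the start on the same strand. The Ifih1 window is chr2:62646206-62646505, with the motif 32 bases after the start on the opposite strand.
Trim30a: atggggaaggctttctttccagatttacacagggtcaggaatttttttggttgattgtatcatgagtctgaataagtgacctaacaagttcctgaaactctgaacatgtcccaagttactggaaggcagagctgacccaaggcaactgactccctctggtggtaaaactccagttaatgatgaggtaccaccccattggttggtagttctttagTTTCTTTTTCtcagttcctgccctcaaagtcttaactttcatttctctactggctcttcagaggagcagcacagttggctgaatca
Ifih1: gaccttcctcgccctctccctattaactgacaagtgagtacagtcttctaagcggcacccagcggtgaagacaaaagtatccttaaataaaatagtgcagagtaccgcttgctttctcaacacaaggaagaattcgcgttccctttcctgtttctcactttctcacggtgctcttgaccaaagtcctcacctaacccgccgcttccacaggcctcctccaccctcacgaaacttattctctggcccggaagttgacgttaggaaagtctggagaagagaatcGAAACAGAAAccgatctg
The motif was present in 18 of the 32 interferon-induced genes with a promoter in the table (56.25%), against 943 of 27025 promoters of all genes (3.489%). Repeated copies may overlap one another, and a match is a description of the letters, not of a bound site.

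ATF4, translated when the eukaryotic initiation factor eIF2α is phosphorylated, induces genes of amino acid synthesis, transport and tRNA charging, whereas the unfolded protein response of the endoplasmic reticulum also induces chaperones. Of 47 genes of this list that were tested, 34 were higher with ATO than with ATRA and 13 lower. At an unadjusted p under 0.05, 9 were higher and none lower by limma (11 and none without ATRA 3), against 2.17% and 2.39% of all genes. DESeq2 called 1 higher (0.414% of all genes) and the fit with replicate block 7 (1.5%), with none lower in either. The ATO libraries lay above all 6 other libraries for 19 of 47 genes, against 3.86% of all genes. The list's median difference was 0.23, or 0.18 without ATRA 3, and its median over the controls was 0.62 with ATO, with 22 genes called higher (6.13% of all genes) and 1 lower, and 0.34 with ATRA, with 6 higher (1.34%).

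The members that were higher with ATO included targets of ATF4. Trib3, a pseudokinase that restrains ATF4, was at 370, 610 and 486 scaled reads with ATO, 217, 206 and 232 with ATRA and 331, 247 and 166 in the controls. The ATO libraries were above all others, the gene rose over the controls by 1.00 with ATO (adjusted p = 0.027, limma), and the drugs differed by 1.13 ± 0.26 (adjusted p = 0.229; 0.0067 by DESeq2). Chac1, which degrades glutathione, was at 570, 720 and 861 with ATO against 382, 350 and 411 with ATRA. Ddit3 (CHOP) was at 505, 514 and 715 against 358, 265 and 447. Both rose over the controls with ATO (1.49 and 1.41, adjusted p = 0.0041 and 0.0025, limma), and the drug groups did not overlap. Atf5 rose over the controls with both drugs, by 1.81 with ATO and 1.21 with ATRA (adjusted p = 0.00083 and 0.0071, limma).

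Further members of the list, chosen after their values were seen, code for enzymes of amino acid synthesis, transport and tRNA charging. Asns (asparagine synthetase) was at 2140, 2412 and 2443 scaled reads with ATO against 1358, 1209 and 1940 with ATRA and 1466 to 1741 in the controls. Psat1, an aminotransferase of serine synthesis, was at 3674, 3484 and 3676 against 2347, 2198 and 3086. In both, every ATO library was above every other library and ATRA 3 was the highest of the ATRA libraries. The differences were 0.66 ± 0.19 and 0.52 ± 0.16 (adjusted p = 0.416 and 0.501, limma), or 0.86 and 0.67 without ATRA 3. Phgdh of serine synthesis, Mthfd2 of the mitochondrial folate cycle, Gars (glycyl-tRNA synthetase) and the amino acid transporter subunits Slc7a5 and Slc3a2 were higher with ATO by 0.53 to 0.68, again with no overlap between the drug groups. Of these, Phgdh, Mthfd2 and Slc3a2 rose with ATO over the controls (adjusted p = 0.042, 0.006 and 0.037, limma). Slc7a5 did not pass (0.078), and Gars differed by less than the fold of 1.5. Psph, the phosphatase of serine synthesis, was at 508, 624 and 776 with ATO against 480, 438 and 481 with ATRA, a difference of 0.43 ± 0.19 (adjusted p = 0.775, limma).

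The chaperones of the endoplasmic reticulum did not share this order. Hspa5 (BiP) was at 28123, 18875 and 22983 scaled reads with ATO and 26363, 26956 and 29157 with ATRA, and Calr (calreticulin), the most expressed member, was at 51335 to 64268 with ATO and 54184 to 64316 with ATRA. The drug groups overlapped for both, and the differences were -0.25 ± 0.18 and 0.01 ± 0.23.

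**Figure D3:**
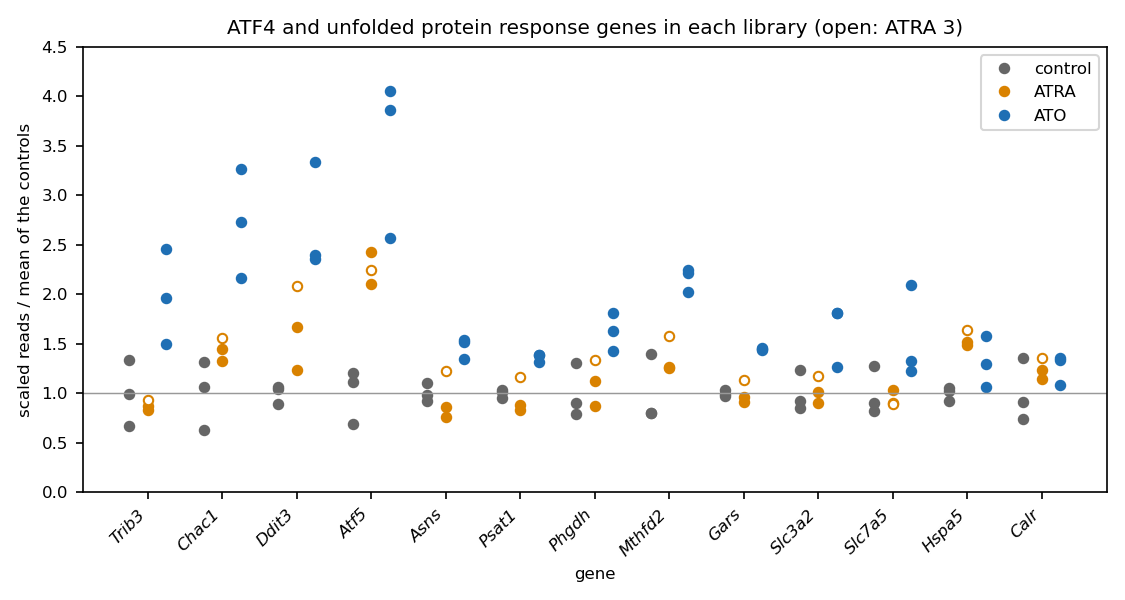
Scaled reads of 13 genes of the ATF4 and unfolded protein response list in each library, divided by the mean of the controls (grey line at 1), with an open circle for ATRA 3. The ATO libraries are above all ATRA libraries for the 11 genes on the left and overlap with them for Hspa5 and Calr on the right.

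The promoters of Trib3 and Asns are shown for the CEBP-ATF response element, the composite site through which ATF4 acts with C/EBP proteins, searched as TGATGNAA on both strands and set in capitals. Both are RefSeq promoters of GRCm38.p6 on the minus strand, 5′ to 3′, in the same window. Trib3 is chr2:152344011-152344310, with the motif 14 bases after the start on the opposite strand, and Asns is chr6:7693160-7693459, with the motif 23 bases before the start on the same strand.
Trib3: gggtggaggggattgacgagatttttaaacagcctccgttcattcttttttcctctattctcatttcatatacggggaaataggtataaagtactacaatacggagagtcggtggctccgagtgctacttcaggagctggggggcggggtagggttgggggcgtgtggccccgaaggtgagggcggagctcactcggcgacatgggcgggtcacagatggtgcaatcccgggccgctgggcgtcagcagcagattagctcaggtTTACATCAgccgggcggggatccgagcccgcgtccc
Asns: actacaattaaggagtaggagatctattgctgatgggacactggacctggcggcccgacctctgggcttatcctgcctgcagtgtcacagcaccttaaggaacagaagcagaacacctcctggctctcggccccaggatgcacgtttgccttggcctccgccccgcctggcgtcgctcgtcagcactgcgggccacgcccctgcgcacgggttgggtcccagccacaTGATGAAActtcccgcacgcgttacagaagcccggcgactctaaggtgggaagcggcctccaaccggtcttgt
The motif was present in 7 of the 40 genes of the list with a promoter (17.5%), against 1096 of 27025 promoters (4.056%).

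AP-1 and the immediate-early genes are transcribed within minutes of stimulation, largely through ERK and stress kinases, and the ERK feedback genes code for phosphatases and Sprouty proteins that restrain ERK. Of 28 immediate-early genes tested, 23 were higher with ATO, against 6321 of 12101 for all genes. At an unadjusted p under 0.05 by limma 7 were higher (2.17% of all genes), and 3 by DESeq2 (0.414%). None was lower by either. The median was 0.30, and 0.34 without ATRA 3. Jun was at 1373, 1265 and 1418 scaled reads with ATO, 696, 542 and 807 with ATRA and 487, 245 and 409 in the controls. The 3 groups did not overlap. The gene rose over the controls by 1.89 with ATO (adjusted p = 0.00084, limma), and the difference between the drugs was 1.00 ± 0.24 (adjusted p = 0.264, or 0.021 by DESeq2).

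Nr4a1, an orphan nuclear receptor, was at 93.7, 120 and 75.5 with ATO and 42.2, 42.6 and 47.4 with ATRA, on either side of the controls (55.7 to 64.0). Atf3, a stress-induced repressor, was at 40.6, 74.0 and 49.2 with ATO and 8.63, 24.6 and 24.2 with ATRA, and both drug groups were below the controls (95.2 to 190). It fell by 2.83 with ATRA (adjusted p = 0.0017, limma), and its difference between the drugs was 1.58 ± 0.43. Jund and Ier2, the most expressed members, overlapped between the drugs, with differences of 0.40 and 0.23.

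Of 11 ERK feedback genes 10 were higher with ATO, with a median of 0.41 (0.45 without ATRA 3). At an unadjusted p under 0.05 it was 3, against 2.17% of all genes, and none by DESeq2 or by the fit with replicate block. Dusp5, a nuclear ERK phosphatase, was at 225, 291 and 208 with ATO and 169, 143 and 155 with ATRA, and Spry1 was at 64.5, 87.8 and 50.9 against 37.4, 41.6 and 34.4. Neither overlapped between the drugs. Dusp7 was at 899, 1284 and 1154 against 706, 775 and 1046, and Dusp6, the exception and the most expressed member, differed by -0.11 with overlapping groups.

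Heat shock chaperones rose over the controls with both drugs in part of the list, 16 of 28 with ATO (6.13% of all genes) and 7 with ATRA (1.34%), comparisons that share the control libraries. Between the drugs 19 were higher and 9 lower with ATO. At an unadjusted p under 0.05 it was 3 and 1, against 2.17% and 2.39% of all genes. The median was 0.14 (0.21 without ATRA 3 and 0.06 without ATO 3). Hspa1b, an inducible HSP70, was at 2120, 1678 and 1887 scaled reads with ATO, 459, 687 and 1424 with ATRA and 31.4 to 51.8 in the controls. ATRA 3 stood closest to ATO. The difference was 1.30 ± 0.34 (adjusted p = 0.334, limma), and it was 1.75 without ATRA 3. Its near-identical copy Hspa1a was at 414, 330 and 358 against 103, 151 and 290. The study kept only uniquely mapped reads, so that reads matching both copies are counted for neither. Zfand2a, which is not a member of the list and codes for an arsenite-inducible proteasome-associated protein, was at 1493, 1447 and 1168 with ATO against 744, 801 and 781 with ATRA and 651 to 808 in the controls. The ATRA libraries lay within the range of the controls and the ATO libraries above it. The gene rose by 0.86 with ATO (adjusted p = 0.0075, limma), and the drugs differed by 0.81 ± 0.17 (adjusted p = 0.144, or 0.0056 by DESeq2). Hsp90ab1 was at 74256 to 79987 with ATO and 58792 to 62915 with ATRA, a difference of 0.34, and Hspa8 overlapped (0.02).

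NRF2 induces genes of glutathione and of thiol and iron handling when its inhibitor KEAP1 is modified. Of 31 such genes 25 were higher and 6 lower with ATO, 1 at an unadjusted p under 0.05, a share near the 2.17% of all genes. The median was 0.23 (0.22 without ATRA 3 and 0.12 without ATO 3). That gene was Hmox1, heme oxygenase 1, at 765, 837 and 925 scaled reads with ATO, 365, 490 and 582 with ATRA and 977 to 1325 in the controls. All 3 groups were apart. Both drug groups lay below the controls, and it fell by 1.32 with ATRA (adjusted p = 0.0019, limma), whereas the difference of ATO from the controls was -0.48 (adjusted p = 0.11). The drugs differed by 0.83 ± 0.20 (adjusted p = 0.264, or 0.048 by DESeq2). Ftl1 (ferritin light chain) and Gsr (glutathione reductase), the most expressed members, differed by 0.49 and 0.25, and Ftl1 overlapped between the drugs.

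Of 14 genes of metal response and arsenic transport, 7 were higher and 7 lower, with a median of -0.03 that was 0.06 without ATRA 3. Mt1, a metallothionein, was at 11494, 15507 and 23254 scaled reads with ATO and 11205, 12319 and 15540 with ATRA, and Pnp (purine nucleoside phosphorylase) differed by -0.10. Both overlapped between the drugs.

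Of 29 genes of glycolysis and the pentose phosphate pathway, 24 were higher with ATO, 3 at an unadjusted p under 0.05 (2.17% of all genes). The median was 0.24, with and without ATRA 3. It was 0.15 with the length trend removed and 0.13 without ATRA 3 and ATO 3. Slc2a1 (GLUT1), the glucose transporter, was at 2097, 2442 and 2557 with ATO and 1195, 1598 and 1795 with ATRA. Pfkp (phosphofructokinase) was at 5568, 5802 and 4818 against 2839, 3244 and 4323, and Slc16a3 (the lactate exporter MCT4) was at 7818, 11536 and 11931 against 6591, 6786 and 6618. None of these 3 overlapped between the drugs, and they rose with ATO over the controls by 0.98, 0.73 and 0.99 (adjusted p = 0.0089, 0.026 and 0.012, limma). Pkm and Gapdh, the most expressed members, differed by 0.31 and 0.30.

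Of the 42 genes of the monocyte and macrophage list, 26 fell and 2 rose with ATO (8.55% and 6.13% of all genes), and 21 fell with ATRA (4.26%), relative to the same controls. Markers of other cells fell in the same comparisons, which was 17 and 15 of 23 for T and NK cells with ATO and ATRA, 17 and 15 of 25 for stroma and endothelium, and 12 and 12 of 16 for eosinophils, basophils and mast cells. Their part in the monocyte values was not tested. Between the drugs 25 were higher and 17 lower with ATO. At an unadjusted p under 0.05 it was 11 and 3, against 2.17% and 2.39% of all genes. The median was 0.17, 0.31 without ATRA 3 and -0.12 without ATRA 1. The list did not have 1 direction. Gpnmb, a lysosomal glycoprotein of macrophages, was at 1156, 2064 and 1984 scaled reads with ATO and 414, 808 and 534 with ATRA, with 4225 to 17955 in the controls. Ctsl (cathepsin L) was at 1647, 2080 and 2017 against 457, 702 and 1125, with 2710 to 8959 in the controls. Both fell with each drug relative to the controls, and neither overlapped between the drugs (1.57 ± 0.44 and 1.42 ± 0.41, adjusted p = 0.416 and 0.426, limma). Apoe was at 967, 1857 and 2328 with ATO against 727, 1161 and 725 with ATRA, where the drug groups overlapped.

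Csf1r, the receptor of macrophage colony-stimulating factor, ran the other way, with 622, 909 and 952 scaled reads with ATO and 1065, 1350 and 1686 with ATRA. Lpl (lipoprotein lipase) was at 57.2, 45.7 and 55.8 against 66.1, 95.6 and 143, and Axl, a receptor of apoptotic cells, was at 31.2, 68.2 and 57.4 against 71.9, 168 and 110. All 3 were lower in every ATO library than in any ATRA library, and fell with ATO over the controls (adjusted p = 0.0053, 4.4e-05 and 0.0037, limma). Ctsd and Ctsb, the most expressed members, differed by 0.62 and 0.30. The summed level of the 46 genes matched was 62074 to 73179 with ATRA and 72559 to 104999 with ATO, against 90247 to 182433 in the controls. In bulk libraries, fewer cells of a type and less RNA per cell cannot be told apart.

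Of 51 genes of specific granules and neutrophil maturation 44 were higher with ATO, with a median of 0.46 that was 0.26 without ATRA 3 and 0.12 without ATRA 3 and ATO 3. At an unadjusted p under 0.05 4 were higher (2.17% of all genes), 1 by DESeq2 (0.414%) and 10 by the fit with replicate block (1.5%), with none lower. Orm1, an acute phase protein stored in granules, was at 261, 350 and 377 scaled reads with ATO and 112, 115 and 120 with ATRA, and fell by 1.19 with ATRA relative to the controls (158 to 355; adjusted p = 0.029, limma). The difference was 1.49 ± 0.29 (adjusted p = 0.0986, limma). Anxa1 was at 3289, 3685 and 3712 against 1425, 1756 and 3008, and Mmp8, the neutrophil collagenase, at 34.3, 18.9 and 34.5 against 15.3, 14.2 and 5.58. Both were without overlap, and Mmp8 rested on few reads. Chil3 and S100a8, the most expressed, overlapped between the drugs (0.35 and 0.41).

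Of 22 chemokines and receptors, 13 were higher with ATO, with a median of 0.21 (0.33 without ATRA 3 and 0.13 without ATRA 1). At an unadjusted p under 0.05, 5 were higher and 1 lower, against 2.17% and 2.39% of all genes. Ccl3 was at 555, 506 and 712 with ATO and 250, 175 and 434 with ATRA, with 170 to 241 in the controls. It rose by 1.52 with ATO (adjusted p = 0.0069, limma) and differed by 1.13 ± 0.29 between the drugs, or 1.48 without ATRA 3. Ccl4 was at 44.7, 66.8 and 64.0 against 20.1, 18.0 and 34.4. Both code for chemokines that attract monocytes and lymphocytes, and their drug groups did not overlap. Tnf, from the inflammatory list, was at 439, 454 and 496 against 215, 188 and 229, with 103 to 411 in the controls. The most expressed members, Cxcr4 and Ccl6, differed by 0.37 and 0.61.

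Summed markers of other cell types that the GFP+ gate could hold overlapped between the drugs for T and NK cells (2581 to 2677 scaled reads with ATRA, 2199 to 2867 with ATO), the B lineage (8493 to 9478, 8988 to 10581), erythroid cells (1918 to 2055, 1741 to 2335) and eosinophils, basophils and mast cells (3232 to 3931, 3347 to 4375). Of the 21 genes of the B lineage list 11 were tested, among them Igll1 at a mean of 1109 scaled reads over the drug libraries. Its members Ms4a1, Pax5 and Ebf1 were at 0 in all 6 drug libraries. Most of these sums came from genes that myeloid cells also express, Nkg7 for T and NK cells (a mean of 2207 scaled reads over the drug libraries), Xbp1 for the B lineage (7908) and Kit (1973) and Hdc (861) for mast cells, so that they bear little on the number of such cells. The stroma and endothelium list stood at 39559 to 47615 with ATRA and 47544 to 55067 with ATO, largely from Vim and Fn1, which myeloid cells also express. Of its 32 genes 25 were tested, and Lum, Dcn and Emcn were at 0 in all 6 drug libraries. The part of these cell types in the differences above was not tested.

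Retinoic acid acts through RAR and RXR heterodimers, and genes such as Cyp26a1, which degrades it, are its direct targets. Of the 17 genes of the retinoid list 10 were higher and 7 lower with ATO. In each direction 1 passed an unadjusted p of 0.05, against 2.17% and 2.39% of all genes. Without ATRA 3 it was 3 and 4, against 2.84% and 3.23% of all genes. DESeq2 and the fit with replicate block each called 1 lower (0.182% and 1.6% of all genes), Uba7, which is also induced by interferon. The median was 0.16, 0.13 without ATRA 3, 0.04 without ATO 2 and 0.26 without ATO 3. The ATRA libraries were not raised over ATO for the receptors. Rara, the gene of the receptor whose sequence is part of the fusion protein, was at 438, 963 and 724 scaled reads with ATO and 400, 462 and 529 with ATRA. The fusion itself comes from a transgene here and not from the Rara locus. Rarg was at 519, 700 and 707 against 394, 398 and 555. The drug groups overlapped for both, the differences being 0.55 and 0.52. Cyp26a1 was at 8.32, 12.3 and 16.4 with ATO and 26.8, 24.6 and 3.72 with ATRA, so that ATRA 1 and ATRA 2 were above every other library and ATRA 3 was the lowest of all. Cd38 fell with both drugs and was at 17.7, 16.7 and 6.56 against 3.83, 4.73 and 7.44. Nrip1, a corepressor that retinoic acid induces, was at 53.1, 45.7 and 8.20 against 63.3, 83.3 and 39.1. Tnfaip2 and Cebpe, the most expressed, overlapped between the drugs (0.16 and -0.06).

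Of the regulators and markers that the study named, 22 were tested. At an unadjusted p under 0.05 with the fold of 1.5, 1 was higher and 3 lower, against 2.17% and 2.39% of all genes. Irf8, the driver of monocytic differentiation, was at 237, 464 and 578 scaled reads with ATO, 456, 724 and 618 with ATRA and 1076 to 1435 in the controls. The drug groups overlapped and both lay below the controls. It fell by 1.60 with ATO (adjusted p = 0.0053, limma), while with ATRA the difference was -1.04 (adjusted p = 0.058), and between the drugs it was -0.56 ± 0.29 (adjusted p = 0.783, limma). Its partner in the same pathway, Mef2c, differed by -0.68 and overlapped. Meis1, also of that pathway in the study, did not pass the filter on level and was not tested, like Aff3 and Bmyc. Tlr7, the sensor of single-stranded RNA, was at 114, 115 and 95.2 against 157, 141 and 174, and fell with both drugs (adjusted p = 0.0011 and 0.0095, limma).

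Of the surface markers, Itgam (CD11b) differed by 0.42, Itgax (CD11c) by 0.05 and Kit by -0.21, each with overlapping drug groups. Cd93 (0.57) and Adgre1 (F4/80, 0.60) were higher in every ATO library than in any ATRA library, and both rose over the controls with ATO (adjusted p = 0.028 and 0.03, limma). Cdkn1a (p21), a target of p53, rose with both drugs and was at 4579, 4180 and 4588 with ATO and 3988, 3037 and 3827 with ATRA, a difference of 0.31 ± 0.17 without overlap. Trp53 and Ctnnb1 (β-catenin) differed by 0.23 and -0.09. Of the transcription factors, Myb differed by -0.38, Klf4 by 0.38, Gata1 by 0.52, Gata2 by 0.30, and Tal1, Ldb1, Ikzf1 and Sox4 by less than 0.08 to either side. Mmp14, a membrane-bound matrix metalloproteinase, was at 10.4, 7.98 and 13.1 with ATO, 45.1, 75.7 and 23.3 with ATRA and 64.0 to 87.1 in the controls. It fell by 2.83 with ATO (adjusted p = 0.0015, limma), and the drugs differed by -2.01 ± 0.41 (adjusted p = 0.14).

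Lists of highly expressed housekeeping genes shifted together by small amounts. All 77 ribosomal protein genes were higher with ATO, with a median of 0.28, and none of them passed an unadjusted p of 0.05 with the fold of 1.5 by limma or a call by DESeq2. Rpsa was at 66539, 86150 and 109235 scaled reads with ATO and 68435 to 75939 with ATRA, and Rplp0 at 57474, 74254 and 82949 against 60712 to 66528. ATO 3 was the highest and ATO 1 the lowest of the drug libraries for both. Without ATO 3, the list's median was 0.09. The same held for oxidative phosphorylation, with 72 of 75 genes higher and a median of 0.15 that was -0.04 without ATO 3, and for mitochondrial ribosomal proteins, with 72 of 76 higher and a median of 0.21 that was 0.05 without ATO 3. Atp5b and Cox4i1, the most expressed genes of oxidative phosphorylation, differed by 0.27 and 0.20. ATO 3 was the library with the steepest length trend. With the length trend removed, the medians were 0.21 for ribosomal proteins, 0.08 for oxidative phosphorylation and 0.15 for mitochondrial ribosomal proteins. Without ATRA 3 they were 0.32, 0.23 and 0.32. The medians of the interferon list and of the ATF4 list were -1.29 and 0.25 without ATO 3, and -1.36 and 0.27 with the length trend removed.

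Among the remaining lists, no gene of DNA replication (44 tested) or of G2 and mitosis (46 tested) passed an unadjusted p of 0.05 with the fold of 1.5 by limma, or a call by DESeq2. Without ATRA 3, 1 gene of G2 and mitosis was lower at that threshold, against 3.23% of all genes. The DNA replication median was 0.12 (0.14 without ATRA 3 and 0.06 without ATO 3). The G2 and mitosis median was -0.17, and it was -0.13 without ATRA 3, -0.03 without ATO 3, -0.09 without ATO 2 and -0.32 without ATO 1. Of 52 corepressors and chromatin enzymes 32 were lower with ATO, with a median of -0.05 (-0.18 without ATRA 3 and 0.003 without ATO 3). At that threshold 2 were lower, near the 2.39% of all genes, and 5 without ATRA 3, against 3.23%. One of them, Hdac9, was at 212, 179 and 112 with ATO and 274 to 309 with ATRA, without overlap.

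**Figure D4:**
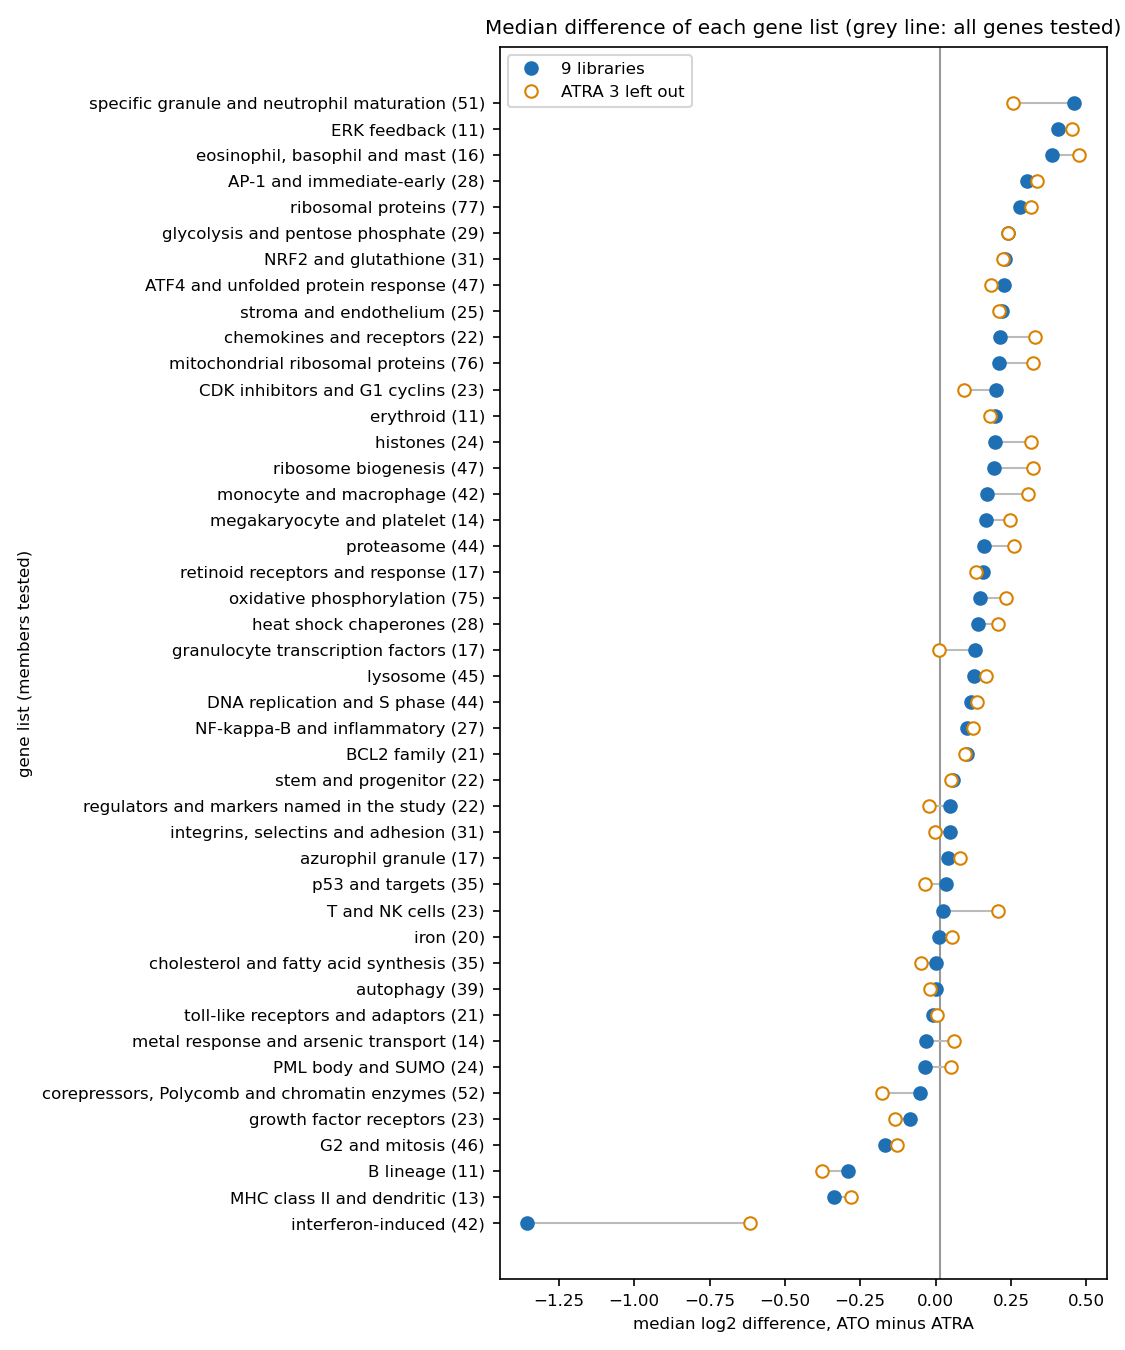
Median log2 difference, ATO minus ATRA, of each gene list with its number of tested members, over all 9 libraries (filled) and with ATRA 3 left out (open), and a grey line at the median of all genes tested (0.01). The interferon-induced list is the lowest in both and moves from -1.36 to -0.61 without ATRA 3.

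Leaving out ATRA 3 thus changed the size of the differences in opposite senses. The interferon-induced genes came closer to 0, while genes in which ATRA 3 stood nearer to ATO than the other ATRA libraries, such as Hspa1b, Ccl3, Asns and Rem1, moved away from it (1.30 to 1.75, 1.13 to 1.48, 0.66 to 0.86 and 2.56 to 3.04). Other genes at a small p moved little, as Il3 went from 1.26 to 1.27 and Txnip from 1.10 to 1.12.

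**Figure D5:**
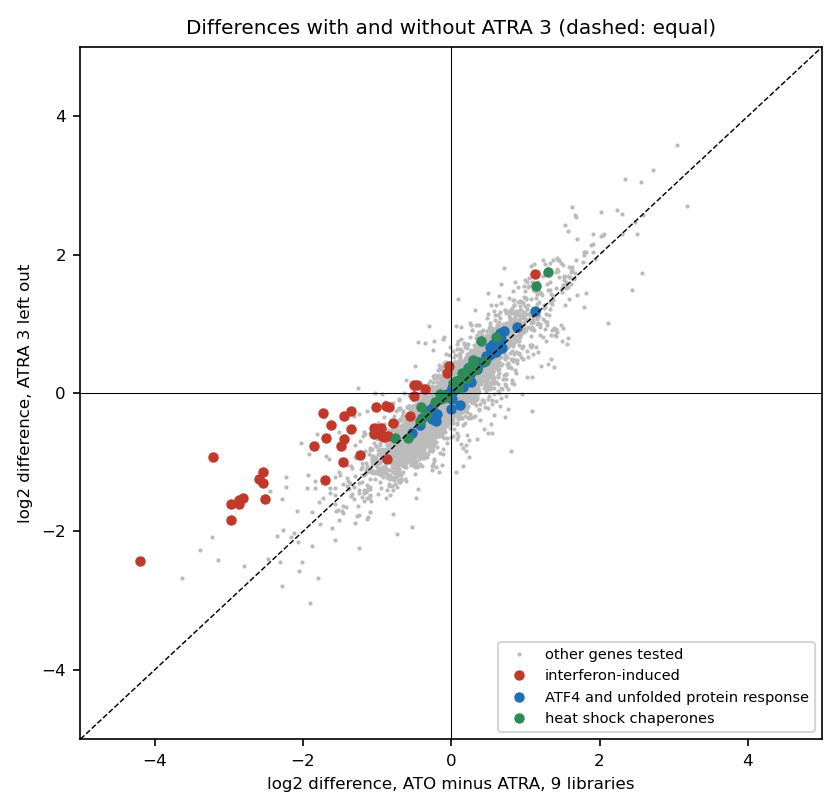
Log2 difference, ATO minus ATRA, of each gene tested over the 9 libraries (horizontal axis) and with ATRA 3 left out (vertical axis), with 3 lists in color and a dashed line where both are equal. Most interferon-induced genes lie above the dashed line, closer to 0 without ATRA 3, with Oasl2 at -4.20 and -2.43, and the ATF4 genes lie along it.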

How the data were processed

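GFP+ cells were profiled by polyA RNA-seq (TruSeq). Per the study's methods and the submitters' processing notes, the authors used FastQC, cutadapt, STAR (mm9; the notes also name hg19), HTSeq and DESeq2, versions not given in the sources used here. The deposited values were a normalized signal, gene counts divided by size factors, in one table per drug with the same controls, and the authors' own fold changes and p-values in them were not used. Each column was divided by its smallest step, which gave whole reads for 100% of values (tolerance 0.001 reads), and the control columns of both tables then held identical reads for all 24364 genes. The 27 entries with date-like names (at most 0.173% of reads) were left out.

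Median-of-ratios size factors were taken over the 9 libraries. limma 3.58.1 with a mean-variance trend (R 4.3.3) was run on log2(value + 0.5) of genes at 10 or more in 3 or more libraries, as 1 model of 3 groups, with Benjamini-Hochberg adjustment over all genes tested. The fit was tested on simulated data. Alternatives used edgeR 4.0.16 and DESeq2 1.42.0 on the recovered reads, TMM scaling, other filters and pseudocounts, a length correction, libraries left out and a replicate block. The labels number replicates 1 to 3 in each group. Deviations from the group mean of same-numbered ATRA and ATO libraries correlated at 0.119, 0.162 and 0.331. Pairs with a control ran from -0.381 to 0.267, and 3 of these 6 were negative. Libraries of different numbers were not compared. The number was taken to pair the drug libraries after these values were seen, so that this pairing is an assumption. The 9-library block changed no call.

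Named genes were the 10 protein-coding genes per direction of largest fold change among the called, filled with uncalled ones of smallest p (mean of at least 100 over the drug libraries), the most expressed 2 or up to 4 called of each list described, and the genes named in the study. Other genes were chosen after their values were seen. Some genes that these rules take are not reported here. The libraries and lists were chosen with earlier results of these data known.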

Additional observations from a re-analysis of the deposited data

Results flagged for a closer look

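For 4 named genes every ATRA library lay below every control and every ATO library above: Klf2 (difference of ATO from ATRA 1.58), Hal (1.25), Nr4a1 (1.10) and Bhlhe40 (0.94). The test of that difference by limma gave adjusted p = 0.0807, 0.0899, 0.24 and 0.0899, and none was called. Their differences of ATRA from the controls did not pass the test. Among all 12101 genes tested, 8 had this order (0.0661%) and 1 had the reverse (0.00826%). The search for single samples far from their group, gene by gene, was not run, since each group held 3.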

How the results depend on the processing

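By limma the count of genes higher and lower with ATO stayed at 0 and 0 under most alternatives. Leaving out 1 library at a time gave 0 to 28 higher and 0 to 1 lower, the 28 and 1 being without control 2. DESeq2 gave 50 and 22, the drug libraries with replicate block 174 and 185, and unadjusted p 262 and 289. With ATRA 3 left out, edgeR gave 2 and 3, DESeq2 75 and 18, leaving out control 2 as well 56 and 8, and unadjusted p 343 and 390. The cause of these differences between tools was not tested. The replicate block over all 9 libraries gave 0 and 0 and changed no call.

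Of 122 named genes, 108 kept their sign under all 26 settings that gave them a value. The 14 that did not were uncalled, with differences of 0.46 or less in size. With 1 library left out, differences ranged from -0.784 to 0.115 (Bst2), -0.586 to 0.0556 (Ly6e), -0.0492 to 0.118 (Calr), -0.0784 to 0.152 (Hspa8), -0.322 to 0.154 (Cebpe), -1.07 to 0.272 (Cyp26a1), -0.0794 to 0.233 (Ikzf1), -0.0259 to 0.175 (Itgax), -0.101 to 0.0845 (Ldb1), -0.257 to 0.0571 (Pnp), -0.350 to 0.433 (Sox4) and -0.0339 to 0.260 (Tal1). With ATRA 3 left out, edgeR, DESeq2 and leaving out control 2 as well gave 0.134, 0.134 and 0.110 for Bst2, 0.0827, 0.0828 and 0.0499 for Ly6e, -0.0177, -0.0172 and -0.0420 for Ikzf1, -0.0395, -0.0390 and -0.0316 for Itgax and 0.0692, 0.0688 and 0.0513 for Pnp. ATRA 3 left out with the length trend removed gave 0.0275 (Bst2), 0.0821 (Ly6e), -0.0131 (Calr), 0.00897 (Dusp6) and 0.141 (Pnp). Without ATRA 3 and ATO 3, S100a8 was at -0.0391, Itgax at -0.0601 and Sox4 at -0.00947. Calr and Hspa8 were at -0.0124 and -0.00377 in the 6 drug libraries alone, with or without replicate block, -0.0106 and -0.00203 with TMM scaling, and -0.0546 and -0.0455 with the length trend removed, with or without replicate block. Sox4 was at -0.0863 by edgeR and -0.0388 by DESeq2.

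Depth limited genes of few reads, such as Ifit1, Mmp8 and Cyp26a1. Each group held 3 libraries, and ATRA 3 and ATO 3 stood apart from theirs.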

Other observations

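Several genes of low level, chosen after their values were seen, had some of the largest differences. Rgs16, which limits G protein signaling, was at 98.9, 132 and 96.8 scaled reads with ATO, 9.59, 7.57 and 27.9 with ATRA and 3.05 to 13.7 in the controls. It rose over the controls with ATO by 3.71 (adjusted p = 0.0019, limma) and differed by 3.04 between the drugs, or 3.59 without ATRA 3. Angptl2, a secreted angiopoietin-like protein, was at 361, 495 and 290 with ATO against 75.7, 108 and 154 with ATRA, and Rfx2, a transcription factor known from ciliated cells, was at 215, 366 and 143 against 58.5, 72.9 and 89.3. Both rose over the controls with ATO (adjusted p = 0.0049 and 0.0015, limma).

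Stress-induced genes outside the lists described above were also apart. Ddit4, an inhibitor of mTORC1, was at 1716, 1206 and 1039 with ATO against 577, 411 and 519 with ATRA, with the controls at 379 to 1126, and Gdf15, a stress-induced cytokine, was at 124, 145 and 192 against 70.9, 44.5 and 83.7. The differences were 1.37 and 1.23 (adjusted p = 0.334 for each by limma, and 0.0077 and 0.045 by DESeq2).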
